A study of Mus musculus with 15 samples.

Results

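Interferon-stimulated antiviral genes were followed through the onset of insulitis in pancreatic islets of non-obese diabetic (NOD) female mice, a strain that spontaneously develops autoimmune diabetes. The 34 genes were taken by name from the gene-level count table, which lists 48709 genes; all 34 were present, and all 34 were among the 16554 genes that passed the filter on low counts. Bulk RNA-seq was performed on isolated islets from 15 mice, 3 for each age of 4, 6, 8, 10 or 12 weeks. By their labels all groups were of the NOD genotype, with no treatment named, and differed in age only. No other strain was analysed here, so age and disease stage cannot be told apart. The ages were sampled from different mice, and no animal was followed over time. Total counts ranged from 25407492 to 41616275 per mouse (median 28004882), so that 3 counts, taken as the detection floor, corresponded to 0.0754 to 0.128 counts per 1000000 library counts (CPM). Whether the genes rose before or together with the genes of infiltrating leukocytes was the question asked of them.

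Interferons are secreted antiviral cytokines. Type I and type III interferons signal through the kinases JAK1 and TYK2 to a complex that holds STAT2 and IRF9 and binds the interferon-stimulated response element (ISRE) in front of target genes, whereas interferon gamma, made by T cells and NK cells, acts mainly at gamma-activated sites (GAS). Many target genes respond to both kinds of interferon, so the identity of the ligand cannot be read from them. In the pancreas of NOD mice, insulitis brings T cells, B cells and myeloid cells into islets that otherwise consist of endocrine cells, endothelium and a few resident macrophages, and both endocrine cells and leukocytes are able to respond to interferon. In bulk RNA a change in the number of cells of one type cannot be told apart from a change in RNA per cell.

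Promoters of interferon-stimulated genes can carry the sequences on which this regulation is known to act. Stretches are shown here for the members described in detail that had an ISRE core ahead of the start site. Of the 34 genes, 24 matched a RefSeq promoter on GRCm38.p6, a window of 250 bases before to 50 bases after the start. The ISRE core was searched on both strands as GAAA and GAAA with any 2 letters (NN) between them, and the GAS as TTCNNNGAA, which reads the same on both strands. An ISRE core occurred in 12 of these 24 genes, against 3.99% of 27025 genes in the RefSeq promoter table. A GAS match occurred in 5 of the 24 (20.8%), against 9.55% of all genes. These matches describe letters in a window and do not establish binding. The 150 bases below are read on the strand of the gene, 5′ to 3′, with the ISRE core in capitals. For Oas3, Bst2 and Isg15, all on the minus strand, the stretch ends at the base before the start site (chr5:120777660-120777809, chr8:71537473-71537622 and chr4:156200819-156200968). For Stat2, on the plus strand, it runs from 250 to 101 bases before the start (chr10:128270248-128270397), and the capitals mark the core as it reads when the match lies on the opposite strand.
Oas3: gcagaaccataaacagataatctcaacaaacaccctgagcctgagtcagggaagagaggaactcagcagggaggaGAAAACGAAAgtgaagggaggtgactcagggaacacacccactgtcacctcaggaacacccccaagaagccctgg
Bst2: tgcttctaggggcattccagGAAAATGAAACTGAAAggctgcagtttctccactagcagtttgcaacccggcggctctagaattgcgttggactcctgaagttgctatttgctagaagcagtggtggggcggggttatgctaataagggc
Isg15: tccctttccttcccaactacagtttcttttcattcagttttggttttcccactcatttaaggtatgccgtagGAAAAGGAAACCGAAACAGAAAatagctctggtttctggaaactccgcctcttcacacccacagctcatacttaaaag
Stat2: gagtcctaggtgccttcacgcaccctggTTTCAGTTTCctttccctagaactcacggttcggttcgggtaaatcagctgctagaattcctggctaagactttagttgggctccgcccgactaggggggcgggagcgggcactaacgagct
Oas3 and Stat2 each held 1 core. The capitals in Bst2 cover 2 overlapping cores, the first of which also overlaps a GAS match starting 136 bases before the start site, and those in Isg15 cover 3 overlapping cores.

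Between 4 and 12 weeks of age, 30 of the 34 interferon-stimulated genes rose and none fell, at an adjusted p under 0.05 in edgeR's quasi-likelihood test over all genes. Over all genes tested, 26.3% rose and 27.2% fell by the same rule. The median difference of the 34 genes was 1.75 on the log2 scale, a 3.36-fold rise, while the median over all genes was −0.05. Among the 30, the fold changes lay between 1.45 (Usp18) and 13.2 (Zbp1), with adjusted p from 0.000408 to 0.0194. For 28 of the 34 genes every mouse at 12 weeks lay above every mouse at 4 weeks, which was the case for 30.3% of all genes. By the study's own threshold of an at least 1.5-fold change with unadjusted p under 0.05, 29 genes were higher (20.9% of all genes), since the change of Usp18 was below 1.5-fold. The 4 genes that did not pass the test were Ifih1, Eif2ak2, Cmpk2 and Lgals3bp. In a test for a difference at any of the 5 ages, 30 of the 34 genes passed, against 56.0% of all genes.

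**Figure D1:**
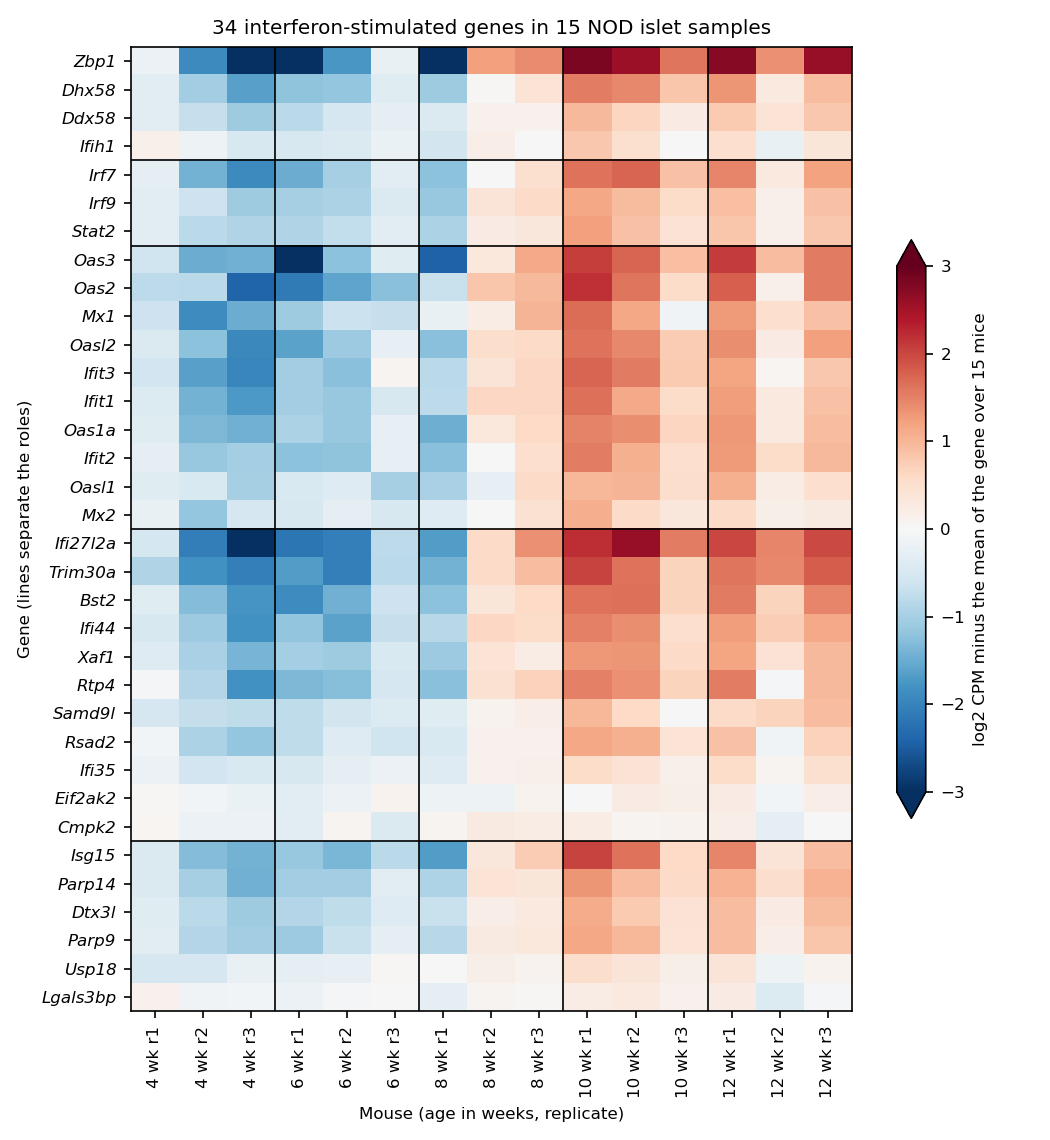
Each row is 1 of the 34 genes, ordered by role and then by the change from 4 to 12 weeks, and each column is 1 of the 15 mice (age in weeks and replicate). Colour shows log2 CPM minus the mean of the gene over all mice, and the scale is capped at 3 log2 units in either direction. Most rows turn from blue at 4 and 6 weeks to red at 10 and 12 weeks, with 8-week replicate 1 resembling the younger mice, whereas Eif2ak2, Cmpk2 and Lgals3bp stay pale.

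The sensors of foreign nucleic acid comprised Ddx58 and Ifih1, which encode the RNA helicases RIG-I and MDA5, Dhx58, which encodes their relative LGP2, and Zbp1, a sensor of Z-form nucleic acid that can trigger cell death. Of these 4, 3 rose from 4 to 12 weeks. Zbp1 (ENSMUSG00000027514, chr2:173206612-173218923, minus strand) showed the largest change of all 34 genes. Its level was 7.49, 2.22 and 0.217 CPM in the 4-week mice, 0.436, 2.499 and 7.25 CPM at 6 weeks and 0.802, 20 and 22.7 CPM at 8 weeks, followed by 60.7, 50.5 and 25.9 CPM at 10 weeks and 56.6, 22.3 and 52.2 CPM at 12 weeks. The mice at 10 and 12 weeks were all above those at 4 and 6 weeks, while 8-week replicate 1 was within the range of the younger animals and the other two 8-week mice were above it. The difference between 12 and 4 weeks was 3.72 ± 1.14 (log2 fold change ± SE, adjusted p = 0.0155); without 4-week replicate 2 it was 3.51 (adjusted p = 0.057). Ifih1 (ENSMUSG00000026896, chr2:62595798-62646255, minus strand) had 32.5, 25.9 and 20.9 CPM at 4 weeks, 20.9, 21.5 and 25.3 CPM at 6 weeks, 19.9, 33.2 and 29.1 CPM at 8 weeks, 50.7, 40.4 and 28.8 CPM at 10 weeks and 41.4, 24.8 and 37.2 CPM at 12 weeks. Its 4- and 12-week mice overlapped, and the difference of 0.38 ± 0.25 between 12 and 4 weeks did not pass the test (adjusted p = 0.211). Ddx58 rose by 1.34 ± 0.23 and Dhx58 by 1.84 ± 0.43 over the same interval (adjusted p = 0.00068 and 0.00347).

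All 3 genes of the transcription factors rose. STAT2 and IRF9 form the complex that binds the ISRE, and IRF7 amplifies the transcription of type I interferon genes. Stat2 (ENSMUSG00000040033, chr10:128270576-128292849, plus strand), whose promoter stretch is shown above, was at 39.03, 27.9 and 26.2 CPM at 4 weeks, 26.1, 29.4 and 39.4 CPM at 6 weeks, 25.4, 58.05 and 62.5 CPM at 8 weeks, 115, 90 and 65.9 CPM at 10 weeks and 87.2, 54.3 and 85.3 CPM at 12 weeks. No mouse at 10 or 12 weeks overlapped with those at 4 or 6 weeks, and the rise to 12 weeks was 1.28 ± 0.32 (adjusted p = 0.00549). Irf7 (ENSMUSG00000025498, chr7:141262706-141266481, minus strand) rose from 10.3, 4.703 and 3.37 CPM at 4 weeks and 4.48, 6.31 and 10.1 CPM at 6 weeks through 5.36, 12.8 and 17.8 CPM at 8 weeks to 39.5, 42.7 and 23.5 CPM at 10 weeks, and stood at 35.5, 15.6 and 29.3 CPM at 12 weeks. Its 10-week mice were all above its 8-week mice, and the change from 4 to 12 weeks was 2.13 ± 0.51 (adjusted p = 0.00416). Irf9 rose by 1.33 ± 0.37 (adjusted p = 0.00918). Its annotated region shares 123 bases with that of Rnf31 on the same strand, and that of Irf7 shares 45 bases with Phrf1 on the opposite strand, so reads from these stretches could have been counted for either gene.

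Among the antiviral effectors, IFIT proteins bind viral RNA, MX proteins trap viral nucleocapsids, and the enzymatically active OAS proteins produce the activator of RNase L. All 10 members of the IFIT, MX and OAS families, OAS-like genes included, rose from 4 to 12 weeks. Oas3 (ENSMUSG00000032661, chr5:120753098-120777661, minus strand) had the largest change among them. It was scarce in young islets, with 1.08, 0.556 and 0.579 CPM at 4 weeks and 0.119, 0.684 and 1.301 CPM at 6 weeks, and the lowest of these mice was at the floor of 3 counts. It then reached 0.255, 2.104 and 3.79 CPM at 8 weeks, 7.35, 5.803 and 3.22 CPM at 10 weeks and 7.49, 3.24 and 5.12 CPM at 12 weeks. The 12-week mice did not overlap with the 4-week mice, and the difference was 2.83 ± 0.80 (adjusted p = 0.00994). Oasl2 (ENSMUSG00000029561, chr5:114896936-114912234, plus strand), an OAS-like gene, went from 15.4, 8.81 and 5.43 CPM at 4 weeks to 6.78, 9.71 and 17.5 CPM at 6 weeks, 8.64, 29.8 and 31.03 CPM at 8 weeks, 64.5, 56.3 and 35.3 CPM at 10 weeks and 54.6, 24.7 and 48.7 CPM at 12 weeks. Its change from 4 to 12 weeks was 2.11 ± 0.53 (adjusted p = 0.00533), with no overlap between those ages. The smallest change in the group was that of Mx2 (ENSMUSG00000023341, chr16:97535308-97560900, plus strand), with 2.17, 1.11 and 1.77 CPM at 4 weeks, 1.82, 2.105 and 1.81 CPM at 6 weeks, 1.93, 2.57 and 3.5 CPM at 8 weeks, 5.54, 3.84 and 3.26 CPM at 10 weeks and 3.83, 2.88 and 3.08 CPM at 12 weeks. The 12-week mice were all above the 4-week mice by a change of 0.95 ± 0.29 (adjusted p = 0.0141), which became 0.72 (adjusted p = 0.0593) without 4-week replicate 2 and 0.82 (adjusted p = 0.0607) without 6-week replicate 2 and 12-week replicate 1, a pair of libraries with intestinal genes described further on. The remaining members rose by between 1.26 ± 0.38 (Oasl1) and 2.55 ± 0.61 (Oas2) log2 units. Oasl1 no longer passed without 4-week replicate 3 or without 12-week replicate 1, at 1.08 (adjusted p = 0.0596) and 0.98 (adjusted p = 0.0581), or without that pair, at 0.98 (adjusted p = 0.0687). Since the Ifit, Mx, Oas and Oasl genes each have close relatives, how reads were divided among the copies is uncertain.

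Among 11 other effectors, 9 rose. Bst2 (ENSMUSG00000046718, chr8:71534255-71537456, minus strand), which encodes tetherin, a membrane protein that holds back budding virus, and whose promoter holds the overlapping cores shown above, was among the members with the highest level per length, with a mean of 91.2 TPM (the authors' unit corrected for transcript length and depth) over the 15 mice. It was at 19.1, 9.96 and 7.16 CPM at 4 weeks, 6.62, 8.997 and 15.8 CPM at 6 weeks, 10.5, 31.6 and 37 CPM at 8 weeks, 76.2, 77.1 and 39.1 CPM at 10 weeks and 72.7, 39.1 and 68.2 CPM at 12 weeks. The 10- and 12-week mice were clear of the 4- and 6-week mice, and the change to 12 weeks was 2.31 ± 0.51 (adjusted p = 0.00252). Ifi27l2a (ENSMUSG00000079017, chr12:103442167-103443680, minus strand) rose by 3.51 ± 0.84 (adjusted p = 0.00393), from 3.26, 1.07 and 0.145 CPM at 4 weeks and 0.991, 1.08 and 2.72 CPM at 6 weeks to 1.42, 7.02 and 12.4 CPM at 8 weeks, 22.2, 29.04 and 13.7 CPM at 10 weeks and 19.2, 13.04 and 18.8 CPM at 12 weeks. No mouse of 10 or 12 weeks came down to the level of the highest 8-week mouse, replicate 3. The level of Ifi27l2a in 4-week replicate 3 rested on 4 counts, close to the floor of 3. Over the alternatives run, its change from 4 to 12 weeks lay between 2.96 and 4.85. Cmpk2 (ENSMUSG00000020638, chr12:26469204-26479835, plus strand), a mitochondrial nucleotide kinase gene lying next to Rsad2 in the genome, was at 36.9, 31.3 and 31.01 CPM at 4 weeks, 28.4, 37.4 and 25.9 CPM at 6 weeks, 37.1, 42.7 and 41 CPM at 8 weeks, 41.2, 37.1 and 37.95 CPM at 10 weeks and 40.5, 29.3 and 35.5 CPM at 12 weeks. Its ages overlapped at 4 and 12 weeks, with a difference of 0.09 ± 0.14 (adjusted p = 0.625), whereas Rsad2, which encodes viperin, rose by 1.204 ± 0.32 (adjusted p = 0.00758). Eif2ak2, the gene of the kinase PKR that halts translation on sensing double-stranded RNA, differed by 0.21 ± 0.12 (adjusted p = 0.171). Trim30a rose by 3.14 ± 0.56 and Ifi44 by 2.12 ± 0.44 (adjusted p = 0.000795 and 0.00177). The change of Rtp4 was 1.71 ± 0.55 (adjusted p = 0.0194), but its 4- and 12-week mice overlapped, and it was 1.65 (adjusted p = 0.0598) without 4-week replicate 2, 1.37 (adjusted p = 0.0766) without 4-week replicate 3, 1.299 (adjusted p = 0.0812) without 12-week replicate 1 and 1.299 (adjusted p = 0.096) without 6-week replicate 2 and 12-week replicate 1.

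The last group held Isg15, a ubiquitin-like modifier, Usp18, the protease that removes it and restrains interferon receptor signalling, the ADP-ribosylation genes Parp9 and Parp14 with the ubiquitin ligase gene Dtx3l, and Lgals3bp, which encodes a secreted glycoprotein. Here 5 of 6 rose. Isg15 (ENSMUSG00000035692, chr4:156199424-156200818, minus strand) was at 2.92, 1.58 and 1.45 CPM at 4 weeks, 1.78, 1.5 and 2.25 CPM at 6 weeks, 1.204, 5.03 and 6.79 CPM at 8 weeks, 16.4, 12.5 and 6.08 CPM at 10 weeks and 11.1, 5.25 and 7.64 CPM at 12 weeks. Its 4- and 12-week mice did not overlap, and it rose by 2.01 ± 0.55 (adjusted p = 0.00838). Lgals3bp (ENSMUSG00000033880, chr11:118392751-118402092, minus strand) had the highest level per length of the 34 genes, with a mean of 374 TPM. It showed 520.5, 446 and 451 CPM at 4 weeks, 420.0, 464 and 473 CPM at 6 weeks, 394, 504 and 487 CPM at 8 weeks, 554, 588 and 519.6 CPM at 10 weeks and 567, 358 and 461 CPM at 12 weeks. The groups at 4 and 12 weeks overlapped, with a difference of −0.03 ± 0.14 (adjusted p = 0.866). Parp14, Dtx3l and Parp9 rose by 1.79 ± 0.36, 1.47 ± 0.28 and 1.402 ± 0.33, with adjusted p of 0.00158, 0.00125 and 0.00375. Dtx3l and Parp9 lie head to head and their annotated regions share 682 bases on opposite strands, where unstranded reads cannot be assigned. Usp18 changed the least of the genes that rose, by 0.54 ± 0.14 (adjusted p = 0.00782).

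Calls and median differences varied over the steps between the 5 ages, and whether the steps differed from each other was not tested. From 4 to 6 weeks, 0 of the 34 genes passed the adjusted p (0.00604% of all genes were higher by it), 0 the study's threshold (1.15%) and 0 an unadjusted p under 0.05 (3.79%); the exact test of edgeR and DESeq2 also called 0 after adjustment. The median difference was 0.05, with 21 genes above 0 and 13 below, and its sign turned with 1 mouse: it ranged from −0.17 without 6-week replicate 3 to 0.31 without 4-week replicate 1, and was −0.04 and −0.12 without 4-week replicates 2 and 3. From 6 to 8 weeks all 34 differences were above 0, with a median of 0.79 that became 0.48 without 8-week replicate 3 and 1.14 without 8-week replicate 1. No gene passed the adjusted p (0% of all genes did), 13 were higher at an unadjusted p under 0.05 (10.9% of all genes), the exact test called 1 (1.59% of all genes were higher by it) and DESeq2 called 2 (2.75% of the genes to which it gave an adjusted p). By the study's threshold 11 genes were higher, against 8.40% of all genes: Oas2 by 2.22 ± 0.62, Ifi27l2a by 2.13 ± 0.81, Trim30a by 1.76 ± 0.54, Ifi44, Bst2, Mx1, Isg15, Ifit1, Irf9, Parp14 and Dtx3l. The groups did not overlap for 3 genes, Mx1, Oas2 and Samd9l (7.62% of all genes were higher without overlap). These calls turned on single mice. The 11 genes became 27 without 8-week replicate 1 and 22 without 6-week replicate 3, but 3 without 6-week replicate 1, 3 without 8-week replicate 3, 4 without 6-week replicate 2 and 5 without 8-week replicate 2, while 4.09% to 11.5% of all genes were higher by it in these fits. The adjusted p was passed by 6 genes without 8-week replicate 1, and 4.29% of all genes were then higher. At 8 weeks against 4 weeks, 16 genes were higher by the study's threshold (9.66% of all genes) and 18 at an unadjusted p under 0.05 (14% of all genes). None passed the adjusted p in the quasi-likelihood test, against 1.86% of all genes, while the exact test called 7 (5.32% of all genes higher) and DESeq2 called 9 (7.71%). The 16 genes became 28 without 8-week replicate 1 and 25 without 4-week replicate 1, and 8, 6, 8 and 5 without 4-week replicate 2, 4-week replicate 3, 8-week replicate 2 and 8-week replicate 3, respectively, with 5.51% to 11.9% of all genes higher. Adjusted calls arose for 20 genes without 8-week replicate 1 (8.15% of all genes) and for 1 gene without 4-week replicate 1 (2.43%).

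From 8 to 10 weeks, 22 genes were higher by the study's threshold, against 11.1% of all genes, and 18 had 10-week mice that were all above the 8-week mice, against 17.2% of all genes. Irf7 rose by 1.56 ± 0.49 and Dhx58 by 1.39 ± 0.42, and they alone passed the adjusted p in the quasi-likelihood test (adjusted p = 0.0487 and 0.0418); 8.40% of all genes were higher by that rule. Neither passed with the replicate number as a block, without the filter on low counts, or when these 2 ages were fitted alone. In each of these fits 0 of the 34 passed, against 0%, 4.19% and 0% of all genes, respectively. The exact test called 10 genes and DESeq2 called 14, where 9.93% and 15.4% of all genes were higher. The 22 genes became 5 without 8-week replicate 1, 4 without 10-week replicate 1 and 12 without 10-week replicate 2 (5.94% to 7.1% of all genes). The 2 adjusted calls became 17 without 10-week replicate 3 (16% of all genes higher) and 7 without 8-week replicate 3 (10.5%), and 0 without 8-week replicate 1, 8-week replicate 2, 10-week replicate 1 or 10-week replicate 2. From 10 to 12 weeks no further rise was detected. No gene was called by the adjusted p in the quasi-likelihood test, the exact test or DESeq2 (0% of all genes were higher by it in the first), none was higher by the study's threshold (1.61% of all genes), and none at an unadjusted p under 0.05 (3.53% of all genes). The median difference was −0.22, and 31 of the 34 genes had a lower mean at 12 than at 10 weeks. This median rested on single mice: it was −0.02 without 12-week replicate 2 and −0.06 without 10-week replicate 1, but −0.40 without 10-week replicate 3 and −0.38 without 12-week replicate 1. The mean was highest at 10 weeks for 30 genes, at 12 weeks for 3 and at 8 weeks for 1.

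**Figure D2:**
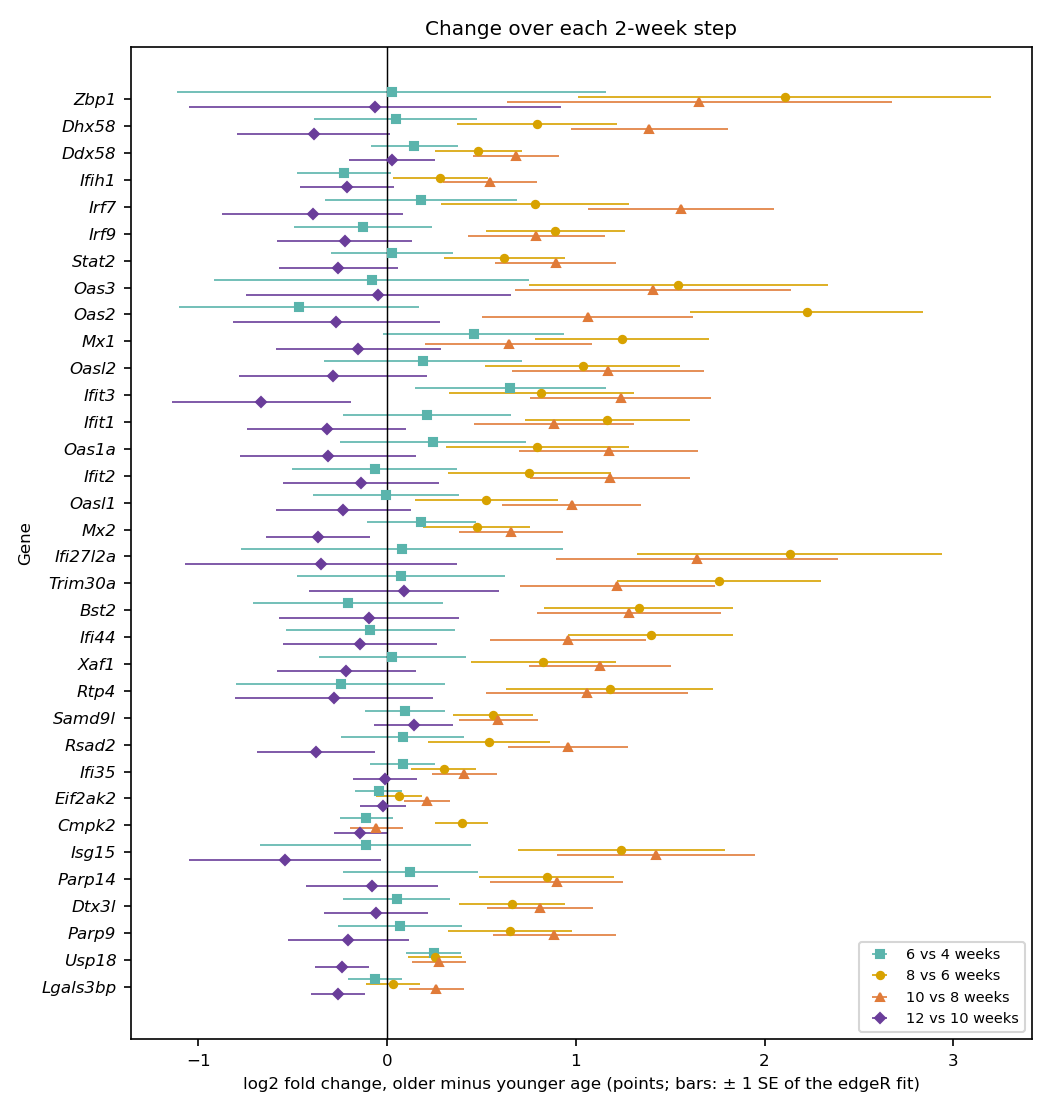
Points give the log2 fold change of each of the 34 genes over the 4 steps between neighbouring ages (older minus younger), and bars give 1 SE of the edgeR fit in either direction. The steps from 6 to 8 weeks (circles) and from 8 to 10 weeks (triangles) lie to the right of 0 for most genes, whereas those from 4 to 6 weeks (squares) fall on both sides of it (21 above, 13 below) and those from 10 to 12 weeks (diamonds) lie to the left of it for 31 genes.

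The leukocyte genes followed the same ages. The comparison used 22 markers of T cells (such as Cd3e), B cells (such as Ms4a1), myeloid cells (such as Csf1r) and all leukocytes (Ptprc), of 23 listed; Itgam was not analysed here. From 4 to 6 weeks 0 of the 22 passed the study's threshold or the adjusted p (1.15% and 0.00604% of all genes were higher by them). From 6 to 8 weeks 19 were higher by the study's threshold, against 8.40% of all genes. By the same threshold 11 were higher from 8 to 10 weeks (11.1% of all genes) and 0 from 10 to 12 weeks (1.61%). Their median differences over these steps were 0.38, 2.55, 1.72 and 0.22. At 8 weeks against 4 weeks the adjusted p was passed by 6 markers, all of them B-cell genes, among them Cd79a and Ms4a1. It was passed by none of the 34 interferon-stimulated genes, and 1.86% of all genes were higher by it. Between 4 and 12 weeks all 22 markers rose by the adjusted p, against 26.3% of all genes, with a median of 4.70. Their summed level went from between 48.2 and 236 CPM to between 2010 and 2380 CPM. The mean of the 34 interferon-stimulated genes was 2.84 ± 0.54 log2 CPM (SD, n = 3) at 4 weeks, 2.93 ± 0.38 at 6, 3.72 ± 0.79 at 8, 4.77 ± 0.43 at 10 and 4.57 ± 0.41 at 12 weeks. The mean of the leukocyte markers was 0.53 ± 1.33, 1.14 ± 1.27, 3.46 ± 1.44, 5.46 ± 0.62 and 5.74 ± 0.20 log2 CPM at the same ages. As a share of the difference between 4 and 12 weeks, the interferon-stimulated genes had reached 5.04% at 6 weeks, 51.1% at 8 weeks and 112% at 10 weeks, and the leukocyte markers 11.7%, 56.2% and 94.7%. These shares are of mean log2 CPM, and their order at 8 weeks turned with the scale: of the summed CPM, 37.3% of the difference had been reached at 8 weeks by the interferon-stimulated genes and 24.2% by the leukocyte markers. It also turned with 1 mouse, since without 8-week replicate 1 the log2 shares were 77.2% and 71.8%. Without 12-week replicate 1 they were 56.4% and 55.6%. The share of the interferon-stimulated genes at 10 weeks was 98.7% without 12-week replicate 2. At 6 weeks both shares changed sign on leaving out 1 mouse: the former was −10.9% without 4-week replicate 3 and −7.10% without 6-week replicate 3, and the latter −1.15% without 6-week replicate 3. No age was found at which the interferon-stimulated genes were raised and the leukocyte markers were not. The order of the gene groups within a 2-week interval was not resolved by this sampling, and the difference between both shares was not tested.

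**Figure D3:**
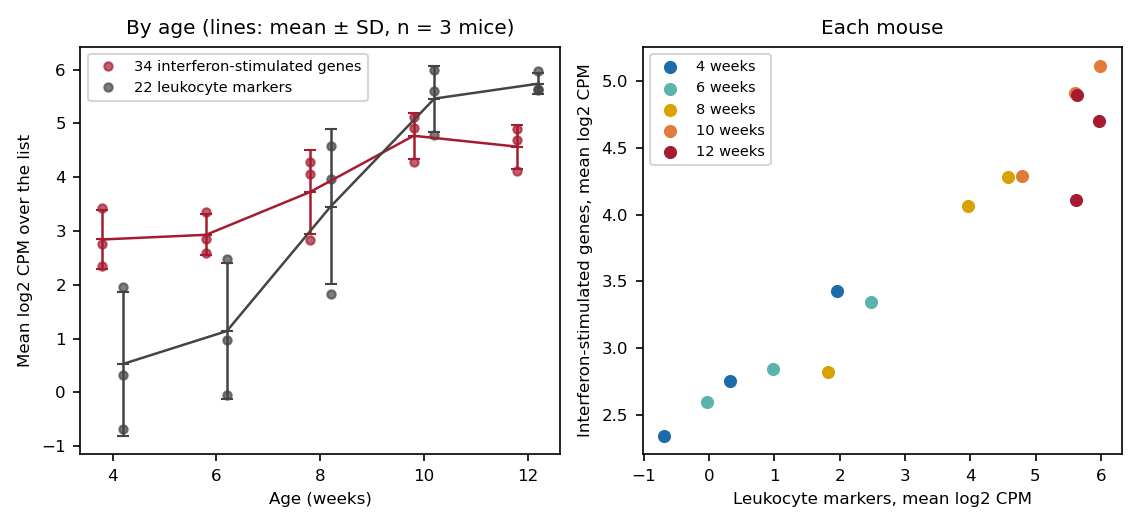
The left panel plots, for each mouse, the mean log2 CPM over the 34 interferon-stimulated genes and over the 22 leukocyte markers against age, with lines and bars for the mean ± SD of 3 mice; both rise between 6 and 10 weeks. The right panel plots the same means against each other, 1 point per mouse coloured by age. The 8-week mouse with the lowest leukocyte mean (1.83) has an interferon-stimulated mean of 2.82, among the 4- and 6-week mice, and a 12-week mouse lies below its age group at 4.11.

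Mice of the same age differed widely, and the interferon-stimulated genes differed along with the leukocyte markers. At 8 weeks, replicate 1 was the lowest of the 3 mice for 33 of the 34 genes and for 21 of the 22 markers; its means were 2.82 and 1.83 log2 CPM, against 4.07 and 3.97 in replicate 2 and 4.28 and 4.57 in replicate 3. At 4 weeks, replicate 1 was the highest for 33 of the 34 genes and for 19 of the 22 markers, with means of 3.43 and 1.95, against 2.76 and 0.32 in replicate 2 and 2.35 and −0.69 in replicate 3. Replicate 3 was the highest of the 6-week mice for 29 genes and 21 markers, and at 10 weeks it was the lowest for 32 genes and all 22 markers. The 12-week mice departed from this order. Replicate 2 was the lowest for 33 of the 34 interferon-stimulated genes, with a mean of 4.11 against 4.90 and 4.70, although its leukocyte mean of 5.61 was close to the 5.63 of replicate 1 and it was the lowest for 13 of the 22 markers.

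This relation was tested by fitting each gene on age together with the leukocyte marker mean of the mouse, so that only differences between mice of the same age enter the slope. The slope was positive with an adjusted p under 0.05 for 26 of the 34 genes and negative for none, whereas 9.94% of all genes had a positive and 0.344% a negative slope by this rule. When the B-cell markers alone served as covariate (a choice made once the data had been seen), the slope was called for 0 of the 34 genes and 0.224% of all genes had a positive slope, while the median slope of the 34 was still 0.42. With the T-cell and myeloid markers it was called for 24 and 28 genes (8.67% and 11.2% of all genes). The median slope was 0.42 log2 units of the gene per log2 unit of the leukocyte mean, against −0.001 over all genes. Zbp1 had a slope of 1.47 ± 0.17, Ifi27l2a of 1.002 ± 0.12 and Oas3 of 0.93 ± 0.17 (adjusted p = 2.97e-05, 6.08e-05 and 0.00246). All 4 sensors, including Ifih1 at 0.24 ± 0.06 (adjusted p = 0.0271), and all 3 transcription factor genes were among the 26, with 7 of the 10 IFIT, MX and OAS genes, 8 of the 11 other effectors and 4 of the 6 genes of the last group. The 8 genes that did not pass were Mx1 at 0.41 ± 0.13 (adjusted p = 0.0604), Rsad2, Oasl1, Mx2, Lgals3bp, Eif2ak2, Usp18 and Cmpk2, the last at 0.04 ± 0.05 (adjusted p = 0.689). Usp18 rose with age while its slope was 0.05 ± 0.05 (adjusted p = 0.641), and Ifih1 had a slope without a called difference between 4 and 12 weeks; whether slopes differed between genes was not tested.

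**Figure D4:**
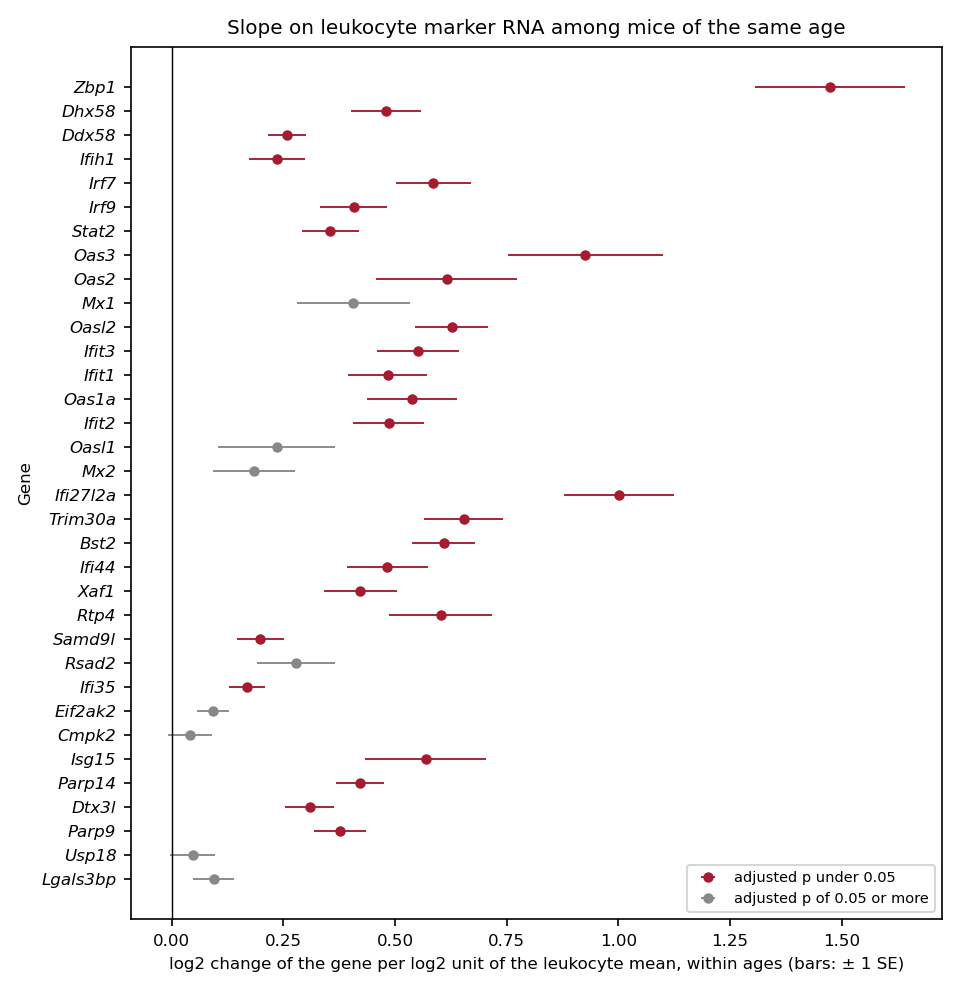
Points give, for each of the 34 genes, the log2 change per log2 unit of the leukocyte marker mean among mice of the same age, and bars 1 SE in either direction. The 26 genes in red passed an adjusted p of 0.05; Zbp1 lies farthest to the right at 1.47 and Cmpk2 closest to 0 at 0.04.

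In the same fit, the ages were compared at an equal leukocyte mean. None of the 34 genes passed the adjusted p, higher or lower, between 6 and 4 weeks, 8 and 6 weeks, or 12 and 4 weeks in edgeR's quasi-likelihood test; of all genes 0.0483%, 0% and 0% were higher and 0.803%, 0% and 0.0121% lower. None of the 34 was higher at an unadjusted p under 0.05 either (4.34%, 2.31% and 2.77% of all genes). By the unadjusted p, 1, 1 and 3 genes were lower in these comparisons (6.49%, 4.42% and 6.55% of all genes), and the median differences were −0.15, −0.18 and −0.53. The 1 gene lower at 6 weeks was Bst2, the 1 at 8 weeks Zbp1, and the 3 at 12 weeks were Zbp1, Ifih1 and Oasl2, named here after their values were seen. The comparison of 12 with 4 weeks rests on extrapolation, since the leukocyte means of these ages did not overlap (−0.69 to 1.95 and 5.61 to 5.97). Those of 4 and 6 weeks overlapped, and those of 6 and 8 weeks overlapped in part.

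Genes upstream of the 34 were examined for the same ages. Of 21 interferon genes listed, 14 had no count in any mouse, and 20, comprising all type I and type III genes, had at most 3 counts in any mouse; at this depth their transcripts were not detectable above the floor. Interferon gamma was the only ligand gene tested. Ifng had 23, 4 and 0 counts at 4 weeks, 0, 2 and 22 at 6 weeks, 5, 86 and 78 at 8 weeks, 183, 188 and 70 at 10 weeks and 158, 52 and 147 at 12 weeks. It was low in 8-week replicate 1 and in 12-week replicate 2, the mice of those ages in which most of the 34 genes were lowest. Whether the level of Ifng was linked to that of the 34 genes was not tested. Ifng rose by 3.45 ± 1.21 from 4 to 12 weeks (adjusted p = 0.029). For the lists that follow, 26.3% of all genes rose from 4 to 12 weeks by the same adjusted p. All 9 genes of interferon receptors and JAK kinases rose from 4 to 12 weeks, among them Jak2 by 1.42 ± 0.26 (adjusted p = 0.000837) and Ifnar1 by 0.46 ± 0.14 (adjusted p = 0.0153). Of 13 genes of nucleic acid sensing upstream of interferon, 9 rose, including the endosomal receptor genes Tlr7 by 3.39 ± 0.68 and Tlr9 by 3.297 ± 0.84 (adjusted p = 0.00149 and 0.00568), while the adaptor and factor genes Mavs, Irf3, Traf3 and Ticam1 did not pass the test. Of 29 further interferon-stimulated genes outside the 34, 25 rose with a median of 1.67 over the list, and Isg20, Trim25, Oas1g and Tdrd7 did not pass. The feedback inhibitor genes Socs1 and Socs3 rose, Socs1 by 2.48 ± 0.64 (adjusted p = 0.00616), and Cish did not pass. None of these lists held a gene that passed the adjusted p from 4 to 6 weeks.

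Markers listed for some other cell types moved with age as well. All 4 genes listed as markers of plasmacytoid dendritic cells, the specialised producers of type I interferon, rose from 4 to 12 weeks. Siglech rose by 3.31 ± 0.92 (adjusted p = 0.00936), and the summed level of the 4 went from between 20.1 and 34.4 CPM to between 109 and 129 CPM. Whether transcripts of these 4 genes came from such cells, from other leukocytes or from other cells of the islet was not tested. All 7 fibroblast markers, among them Col1a1 and Pdgfra, rose as well. Their mean was 4.83 ± 0.46 log2 CPM at 4 weeks, 6.10 ± 0.46 at 8 and 7.05 ± 0.34 at 12 weeks (SD, n = 3), and it too was lowest in replicate 1 of the 8-week mice (5.58 against 6.30 and 6.42) and in replicate 3 of the 10-week mice (6.06 against 6.95 and 6.98). Of 7 endothelial markers 3 rose and 1 fell, and of 7 acinar markers none passed. Of 12 endocrine markers 10 fell. Over all genes, 26.3% rose and 27.2% fell between 4 and 12 weeks by the same adjusted p. The summed endocrine level was between 313640 and 345864 CPM at 4 weeks and between 153873 and 194981 CPM at 12 weeks. Intestinal genes were present in 6-week replicate 2 and 12-week replicate 1, where Alpi had 461 and 3623 counts and 0 in every other mouse. Without both of these mice 27 of the 34 genes rose from 4 to 12 weeks (24% of all genes), the 3 lost being Mx2, Oasl1 and Rtp4, 4 were higher by the study's threshold from 6 to 8 weeks (4.13% of all genes) and 0 passed the adjusted p from 8 to 10 weeks (3.4%). What part each cell type had in the rise of the interferon-stimulated genes was not tested beyond the fit on the leukocyte mean.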

How the data were processed

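Polyadenylated RNA of collagenase-isolated islets was sequenced as read pairs on an Illumina instrument. The authors trimmed, aligned and counted reads in CLC Genomics Workbench; the submitters' processing notes name mm10. The deposited table holds, per mouse, whole-number counts per gene, used for all tests, and TPM values (corrected for length and depth) made by the authors, used to compare levels between genes. A further 30 columns of per-sample values were not used. Groups followed the labelled age. The 34 genes, the marker lists and the other pathway lists were chosen with earlier results of these data known.

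Genes were kept by edgeR's filterByExpr over ages, scaled by TMM and tested with glmQLFit and glmQLFTest (edgeR 4.0.16, R 4.3.3) in 1 fit of all 15 mice, with Benjamini-Hochberg adjustment over all 16554 genes. CPM used the TMM library sizes, and log2 CPM a prior count of 2. The scripts were checked on simulated counts. The leukocyte fit added the mean log2 CPM of the 22 markers to age. Values in every mouse are given for the members with the largest change, the smallest change (12 against 4 weeks) and the highest mean TPM in each role; the other genes named come from the fixed lists. Alternatives were DESeq2 1.42.0, the edgeR exact test, other scalings, no filter, a replicate block, fits of the 2 ages alone, other leukocyte covariates and leaving out each mouse. Between mice of 1 age, counts varied 15.9 to 127 times as much as sampling alone gives (chi-square divided by its degrees of freedom), so no library was counted as deposited more than once. Floors cover counting error only. Results of some genes are not reported here.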

Additional observations from a re-analysis of the deposited data

How the results depend on the processing

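The calls between 4 and 12 weeks varied little: 27 to 31 of the 34 genes rose by the adjusted p, and 28 to 31 by the study's threshold, under every alternative run, where 19.3% to 39.6% and 17.5% to 27% of all genes were higher. The steps in between depended on the method. At 8 against 4 weeks, 1 gene passed the adjusted p with library totals as scaling (3.44% of all genes were higher). The exact test called 7 (5.32%) and DESeq2 called 9 (7.71%), and leaving out 1 mouse gave 0 to 20 (0.0771% to 8.15%). At 8 against 6 weeks the exact test called 1 gene (1.59% of all genes were higher) and DESeq2 called 2 (2.75%). Leaving out 1 mouse gave 0 to 6 (0% to 4.29%). At 10 against 8 weeks, 1 gene passed with library totals (11.1% of all genes), 0 without a filter on low counts (4.19%) and 0 with a replicate block (0%). There were also 0 when only the 2 ages were fitted (0%) and 0 without 6-week replicate 2 and 12-week replicate 1 (3.4%). The exact test called 10 (9.93%) and DESeq2 called 14 (15.4%), and leaving out 1 mouse gave 0 to 17 (0% to 16%). By the study's threshold, fits of the 2 ages alone gave 10 genes at 8 against 4 weeks (6.8% of all genes) and 10 at 10 against 8 weeks (8.54%). Leaving out 1 mouse gave 0 to 1 at 6 against 4 weeks (0.883% to 1.59% of all genes were higher) and 3 to 27 at 8 against 6 (4.09% to 11.5%). It gave 5 to 28 at 8 against 4 (5.51% to 11.9%) and 4 to 26 at 10 against 8 weeks (5.94% to 14.2%). Leaving out 6-week replicate 2 with 12-week replicate 1 gave 4 at 8 against 6 weeks (4.13%). The causes of these shifts were not tested, except that fits of 2 ages or with a mouse left out hold fewer samples.

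The mice were different animals at each age, and the main fit did not pair them by replicate number. The mean correlation of deviations between same-numbered mice was −0.34 for 6 against 4 weeks, 0.29 for 8 against 6 and −0.40 for 8 against 4. It was −0.25 for 10 against 8, −0.15 for 12 against 10 and −0.01 for 12 against 4 weeks. With 3 mice per age, these values cannot exclude a batch shared by replicate number. With the replicate block the adjusted calls remained at 30 between 4 and 12 weeks (24.8% of all genes were higher). The slope on the leukocyte mean was called for 27 genes (8.96% of all genes). Beside the loss of both adjusted calls at 10 against 8 weeks, no count of the 34 genes moved by over 1.5 times under the block. Over all genes the adjusted calls went from 2776 to 0 at 10 against 8 weeks and from 695 to 213 at 8 against 4 weeks.

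The slope on the leukocyte mean was called for 20 to 28 genes with 1 mouse left out, where 6.18% to 9.98% of all genes had a positive slope. On a linear scale, with each gene divided by its highest age mean, the leukocyte markers had reached 24.1% of their 4-to-12-week difference at 8 weeks and the interferon-stimulated genes 39.9%. Of the summed CPM, the leukocyte markers had reached 24.2% at 8 and 79.9% at 10 weeks, and the interferon-stimulated genes −1.79% at 6 and 37.3% at 8 weeks. The latter sum lay between 779 and 1044 CPM at 4 weeks and between 768 and 985 CPM at 6 weeks. A large part of it was Lgals3bp, a gene not called between 4 and 12 weeks, with means of 473 and 452 CPM at 4 and 6 weeks. The 6-week share of the interferon-stimulated genes ranged from −10.9% to 18.8% with 1 mouse left out, through −7.10% without 6-week replicate 3, and that of the leukocyte markers from −1.15% to 23.1%. Among single genes between 4 and 12 weeks, signs turned for 2 that were not called: Lgals3bp was at 0.026 (both with DESeq2 size factors and in DESeq2), 0.21 (library totals) and 0.0194 (2 ages alone), and between −0.21 and 0.12 with 1 mouse left out (0.0401 without 4-week replicate 1). Cmpk2 was between −0.0301 (without 12-week replicate 1) and 0.20 with 1 mouse left out, and at −0.0301 without both libraries with intestinal genes. Scaling by library totals moved the median of all genes between 4 and 12 weeks from −0.05 to 0.20 and that of the 34 genes from 1.75 to 1.99; Eif2ak2 then passed at 0.45. Summed levels, omission of both libraries with intestinal genes, single-lineage covariates and single-gene fits of 2 ages were chosen after seeing the data. With 3 mice per age, an exact permutation test of a single value cannot go below p = 0.1.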

Other observations

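With Ptprc alone as the covariate, the within-age slope was called for 26 of the 34 genes and for 9.65% of all genes. Over all genes, 1988 passed with the myeloid markers, 1453 with the T-cell markers and 39 with the B-cell markers, against 1702 with the full marker mean. At 8 weeks, replicate 1 had a T-cell mean of −0.34 log2 CPM, against 3.59 and 4.13 in replicates 2 and 3, while its B-cell mean was 2.77 against 2.97 and 4.26. The single-lineage covariates were chosen after seeing the data, and their differences were not tested.

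In 12-week replicate 2, in which 33 of the 34 interferon-stimulated genes were the lowest of their age, Ifng had 52 counts against 158 and 147, and the mean of the myeloid markers was 5.33 log2 CPM against 5.80 and 5.89. The T-cell mean was 5.07 against 5.15 and 5.54, and the B-cell mean 6.23 against 5.63 and 6.18. What distinguishes this mouse was not tested.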
